A study of Sus scrofa with 4 samples.

Results

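Granulosa cells, which form the inner wall of the ovarian follicle and nourish the oocyte, were profiled by RNA sequencing, and the genes described here act in homologous recombination, the Fanconi anaemia pathway, mismatch and uracil repair and the DNA damage checkpoints. They were chosen by symbol from lists of gene function, with earlier results of these data known, so their counts and medians are descriptions without a test. Of the 41 chosen, 40 have a row among the 29884 of the deposited count table (FANCE was not analysed here). The cells came from antral follicles of pigs. Their cell cycle phases were read by flow cytometry, and the cells left over were assigned to groups by how many were in G0/G1, before DNA synthesis starts. The 2 high G0/G1 libraries are compared with the 2 low G0/G1 libraries, and the labels name no treatment, genotype, breed, age or animal for either group. Since the groups were formed by the cell cycle, lower levels of genes that act in S phase and G2 are what the grouping selects for. Whether the libraries within a group are from different animals is not stated, so the p-values reflect the spread between 4 samples, part of which may be technical.

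Homologous recombination repairs a broken DNA molecule from its sister copy. The ends of the break are cut back by nucleases, BRCA1 and BRCA2 help to prepare the exposed strand for pairing with that copy, and helicases later separate the joined molecules. The Fanconi pathway acts on crosslinked DNA: a core complex with the ubiquitin-conjugating enzyme UBE2T marks the FANCD2-FANCI clamp with ubiquitin, and USP1 removes the mark. The kinases ATM and ATR sense breaks and stalled forks and act through CHEK2 and CHEK1 to hold the cell cycle. In most dividing cells recombination is used mainly in S phase and G2, when a sister copy exists, and many of its genes are targets of E2F factors. In the ovary these pathways are best known from oocytes, and the granulosa cells of a growing follicle divide around them.

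Library totals ran from 27442850 to 32674921 counts. The members had between 12 counts (FANCB in high replicate 2) and 6665 counts (ATM in the same library), and all 40 passed the filter on low counts. Levels are in CPM, the count relative to a TMM-scaled library total. The 10 granulosa markers summed to 17220 and 11200 CPM in high replicates 1 and 2 and to 16050 and 14580 CPM in the low replicates, with a count for each marker. The sum is led by INHA, and 7 of the 10 had lower levels in high G0/G1 cells. Each of these 7 had both high libraries below both low ones, where 29.8% of all genes tested did. The reverse order held in INHA and NR5A2, with log2 fold changes of 0.36 and 0.97, where 26.8% of all genes had it. FST (0.27) overlapped between groups. The median log2 fold change of the 10 markers was -0.79 (-1.01 to -0.45 with single libraries left out). DESeq2 called FSHR, the receptor of follicle-stimulating hormone (-1.79), and the inhibin subunit gene INHBB (-1.70) lower, and none of the markers higher. What this has to do with the values below was not tested. Low replicate 2 stood apart in markers of stroma, whose 8 genes summed to 120 and 151 CPM in high replicates 1 and 2 and 55.4 and 1609 CPM in low replicates 1 and 2. It was also the highest library in the 4 theca markers, at 362 CPM against 55.01 to 95.1 CPM in the other libraries. The 7 endothelial markers summed to 55.1 and 54.9 CPM in high replicates 1 and 2 and 66.3 and 90.7 CPM in the low replicates. The 8 leukocyte markers stayed at or under 3.79 CPM in each library. The 7 oocyte markers summed to 8.755 and 9.69 CPM in high replicates 1 and 2 and 6.43 and 11.7 CPM in the low replicates. Of these, ZP2 and FIGLA had no count in any library. The part that stromal or theca RNA plays in the values below was not tested, so results are also given without low replicate 2.

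Of 40 repair and checkpoint genes, 36 had lower levels in high than in low G0/G1 cells. The median log2 fold change was -1.37, against -0.01 over all 14352 genes tested, of which 50.6% were lower. Both high libraries lay below both low ones in 35 members, where 29.8% of all genes tested did. They lay above in 2, FANCF and ATM, where 26.8% of all genes did, and overlapped in FANCG, RAD50 and NBN. A log2 fold change under -1, a more than 2-fold lower level, was found in 28 members, and one under -2 in 7, which were BRCA1, RAD51AP1, XRCC2, RAD54L, UBE2T, EXO1 and BLM. In bulk samples like these, fewer cells that express a gene and less of its RNA per cell cannot be told apart.

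In edgeR's quasi-likelihood test none of the members passed an adjusted p of 0.05, nor did any other gene (0% called lower and 0% higher). The smallest adjusted p of a member was 0.151, for UBE2T, and the largest was 0.965, for NBN. At an unadjusted p under 0.05, 25 members were lower, where 10.8% of all genes tested were, and ATM alone was higher, where 9.92% were. limma-voom also made 0 calls among the members, with 30 lower (11.9% of all genes) and 1 higher (9.85%) at an unadjusted p under 0.05. DESeq2 called 16 members lower, where it called 5.05% of all genes lower, and called ATM higher, where it called 5.34% of all genes higher. On simulated counts DESeq2 made more false calls than its threshold allows. Its calls and adjusted p-values throughout this report carry that limit.

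The 2 high libraries differed from each other far more than the 2 low ones did. High replicate 2 was the lower of the high libraries in 36 members, all but PALB2, XRCC3, FANCG and ATM. The median difference between the high libraries was 2.41-fold, against 1.11-fold between the low libraries, and it was the larger in 36 of 40 members. With ATM left out, the members summed to 893 and 456 CPM in high replicates 1 and 2 and to 1656 and 1515 CPM in the low replicates. Without high replicate 1, edgeR called 26 members lower (3.92% of all genes) and ATM higher (2.41%), at a median log2 fold change of -2.12. That fit holds a single high library, so its spread comes from the 2 low libraries and the high library is assumed to vary as they do; the same holds, with the spread of the other group, for each fit that leaves out a library. Without any of the other 3 libraries it called 0, and the medians were -0.96, -1.30 and -1.46 when high replicate 2, low replicate 1 and low replicate 2 were omitted. Of the 36 lower members, 35 kept a negative fold change when each library was left out in turn, the exception being RAD50. The count lower at an unadjusted p under 0.05 was 33 with high replicate 1 left out (15.2% of all genes), 24 with high replicate 2 left out (8.6%), 10 with low replicate 1 left out (4.81%) and 16 with low replicate 2 left out (5.36%). For the same 4 omissions DESeq2 called 32 (8.36%), 12 (3.14%), 0 (0.753%) and 2 members lower (0.94%). The 2 called without low replicate 2 were BLM (DESeq2 adjusted p = 0.034) and EXO1 (DESeq2 adjusted p = 0.041).

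**Figure D1:**
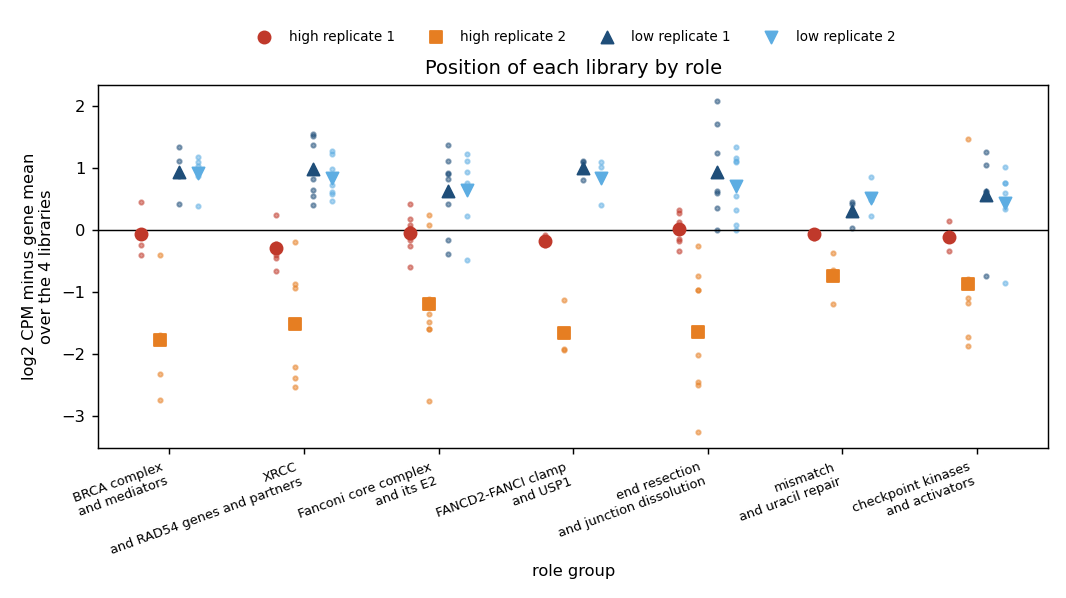
Log2 CPM of each gene minus its mean over the 4 libraries, by role. Large symbols are the mean over the genes of a role in 1 library and small points are single genes. The mean of high replicate 1 lies between -0.29 and 0.01 in every role, that of high replicate 2 between -1.77 and -0.74, and the means of both low libraries lie above 0.

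The genes of the BRCA1 complex and its mediators were lower in all 5 members (median log2 fold change -1.55). BRCA1 (chromosome 12, 19788087 to 19854515 in Sscrofa11.1), a ubiquitin ligase that promotes recombination at breaks, had 27.7 and 5.90 CPM in high replicates 1 and 2 against 74.7 and 63.3 CPM in the low replicates. Its obligate partner BARD1 had 15.5 and 5.58 CPM against 34.8 and 37.6 CPM. In both genes the groups were apart and high replicate 2 was the lowest library. The log2 fold change was -2.04 ± 0.71 for BRCA1 (SE, edgeR adjusted p = 0.213, DESeq2 adjusted p = 0.030) and -1.78 ± 0.51 for BARD1 (edgeR adjusted p = 0.182, DESeq2 adjusted p = 0.016).

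PALB2, which bridges BRCA1 to BRCA2, behaved otherwise within the high group. It stood at 8.62 and 8.64 CPM in high replicates 1 and 2 against 15.3 and 15.1 CPM in the low replicates, a log2 fold change of -0.82 ± 0.28 (edgeR adjusted p = 0.209), so the libraries of each group were nearly level. BRCA2, which acts on the exposed strand, had 9.90 and 3.09 CPM in high replicates 1 and 2 and 18.6 and 18.7 CPM in the low replicates, with a log2 fold change of -1.52 ± 0.58. The helicase gene BRIP1 was at 6.004 and 0.597 CPM in high replicates 1 and 2, with 17 counts in replicate 2, and at 9.47 and 9.92 CPM in the low replicates. Its log2 fold change of -1.55 ± 0.997 ranged from -4.02 to -0.69 when high replicate 1 or high replicate 2 was left out.

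The XRCC and RAD54 genes and their partners were lower in all 7 members (median -1.39). RAD51D and RAD51C, which act together in recombination, had small standard errors. RAD51D stood at 54.5 and 39.3 CPM in high replicates 1 and 2 against 104 and 119 CPM in the low replicates, and RAD51C at 8.92 and 6.35 CPM against 21.7 and 18.4 CPM. Their log2 fold changes were -1.25 ± 0.25 (edgeR adjusted p = 0.154, DESeq2 adjusted p = 0.0031) and -1.39 ± 0.32 (edgeR adjusted p = 0.166, DESeq2 adjusted p = 0.0077). XRCC2, which binds RAD51D, had 4.63 and 1.16 CPM against 16.2 and 11.2 CPM, a log2 fold change of -2.24 ± 0.71. XRCC3, which pairs with RAD51C, was the lowest in high replicate 1, with 5.20 and 7.16 CPM in high replicates 1 and 2 and 10.9 and 11.4 CPM in the low replicates (-0.85 ± 0.34).

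RAD51AP1, which stimulates strand pairing in recombination, had 9.66 and 2.18 CPM in high replicates 1 and 2 against 30.2 and 28.3 CPM in the low replicates, a log2 fold change of -2.30 ± 0.70 (edgeR adjusted p = 0.193, DESeq2 adjusted p = 0.013). The translocase gene RAD54L had 15.5 and 3.09 CPM against 53.4 and 42.9 CPM, at -2.37 ± 0.75 (edgeR adjusted p = 0.197, DESeq2 adjusted p = 0.013). Its paralog RAD54B was closer between groups, with 15.9 and 4.77 CPM in high replicates 1 and 2 and 21.0 and 20.5 CPM in the low replicates. The log2 fold change of RAD54B was -1.005 ± 0.581, and -0.38 without high replicate 2. RAD54B overlaps FSBP by 8777 bases in the annotation, and FSBP had a log2 fold change of 0.20.

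Of the 7 measured subunits of the Fanconi core complex 5 had negative log2 fold changes, and those of FANCF and FANCG were above 0. None of the 7 passed edgeR's test at an adjusted p of 0.05. UBE2T, the enzyme that works with the complex, had a log2 fold change below that of each subunit. UBE2T (chromosome 10, 24454492 to 24459085) had 8.82 and 4.39 CPM in high replicates 1 and 2 against 28.9 CPM in both low ones, with a log2 fold change of -2.13 ± 0.40 and a range of -2.73 to -1.71 when single libraries were left out. It had the smallest adjusted p of all members in both tools (edgeR 0.151, DESeq2 2.3e-04). FANCA had 44.1 and 18.8 CPM against 84.6 and 76.0 CPM (-1.35 ± 0.43), and FANCC 5.03 and 1.97 CPM against 11.6 and 11.7 CPM (-1.73 ± 0.53). These 3 genes have the smallest edgeR p-values of the role. DESeq2 called them lower, alone among the 8 tested genes of the role, where it called 5.05% of all genes lower. Its adjusted p-values were 0.047 for FANCA and 0.033 for FANCC.

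FANCM, the translocase that anchors the complex on DNA, had 7.08 and 2.81 CPM in high replicates 1 and 2 against 14.9 and 13.5 CPM in the low replicates, a log2 fold change of -1.52 ± 0.51. FANCL, its ubiquitin ligase subunit, had 8.75 and 3.93 CPM against 11.4 and 13.7 CPM (-0.99 ± 0.47). FANCB, which binds FANCL, had the fewest reads, 3.69 and 0.421 CPM in high replicates 1 and 2 (110 and 12 counts) against 8.44 and 7.66 CPM in the low replicates, a log2 fold change of -1.97 ± 0.97. In these 3 genes both high libraries lay below both low ones, where 29.8% of all genes tested did. FANCF (chromosome 2, 36884701 to 36886661), an adaptor subunit, went the other way, with 21.7 and 19.1 CPM in high replicates 1 and 2 against 14.5 and 11.5 CPM in the low replicates and a log2 fold change of 0.65 ± 0.27 (edgeR adjusted p = 0.259, DESeq2 adjusted p = 0.22). It stayed positive when single libraries were left out, from 0.50 to 0.89. In the RefSeq annotation FANCF overlaps GAS2 by 736 bases. GAS2 had a log2 fold change of 1.22, and since no strand setting is stated for the counting, reads of the 2 genes may not be told apart. FANCG, which binds FANCA, overlapped between groups at 56.8 and 57.3 CPM in high replicates 1 and 2 and 41.3 and 63.4 CPM in the low replicates. Its log2 fold change of 0.12 ± 0.27 became -0.09 without low replicate 1.

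The clamp that the core complex marks was lower in both subunits by nearly the same amount. FANCD2 had 25.96 and 7.93 CPM in high replicates 1 and 2 against 65.4 and 65.8 CPM in the low replicates, and FANCI had 30.9 and 9.34 CPM against 77.1 and 72.3 CPM. The log2 fold changes were -1.95 ± 0.57 (edgeR adjusted p = 0.184, DESeq2 adjusted p = 0.012) and -1.89 ± 0.57 (edgeR adjusted p = 0.191, DESeq2 adjusted p = 0.016). USP1, which takes the ubiquitin mark off, had 80.8 and 39.0 CPM in high replicates 1 and 2 against 149 and 113 CPM in the low replicates, a log2 fold change of -1.13 ± 0.40 (edgeR adjusted p = 0.214).

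**Figure D2:**
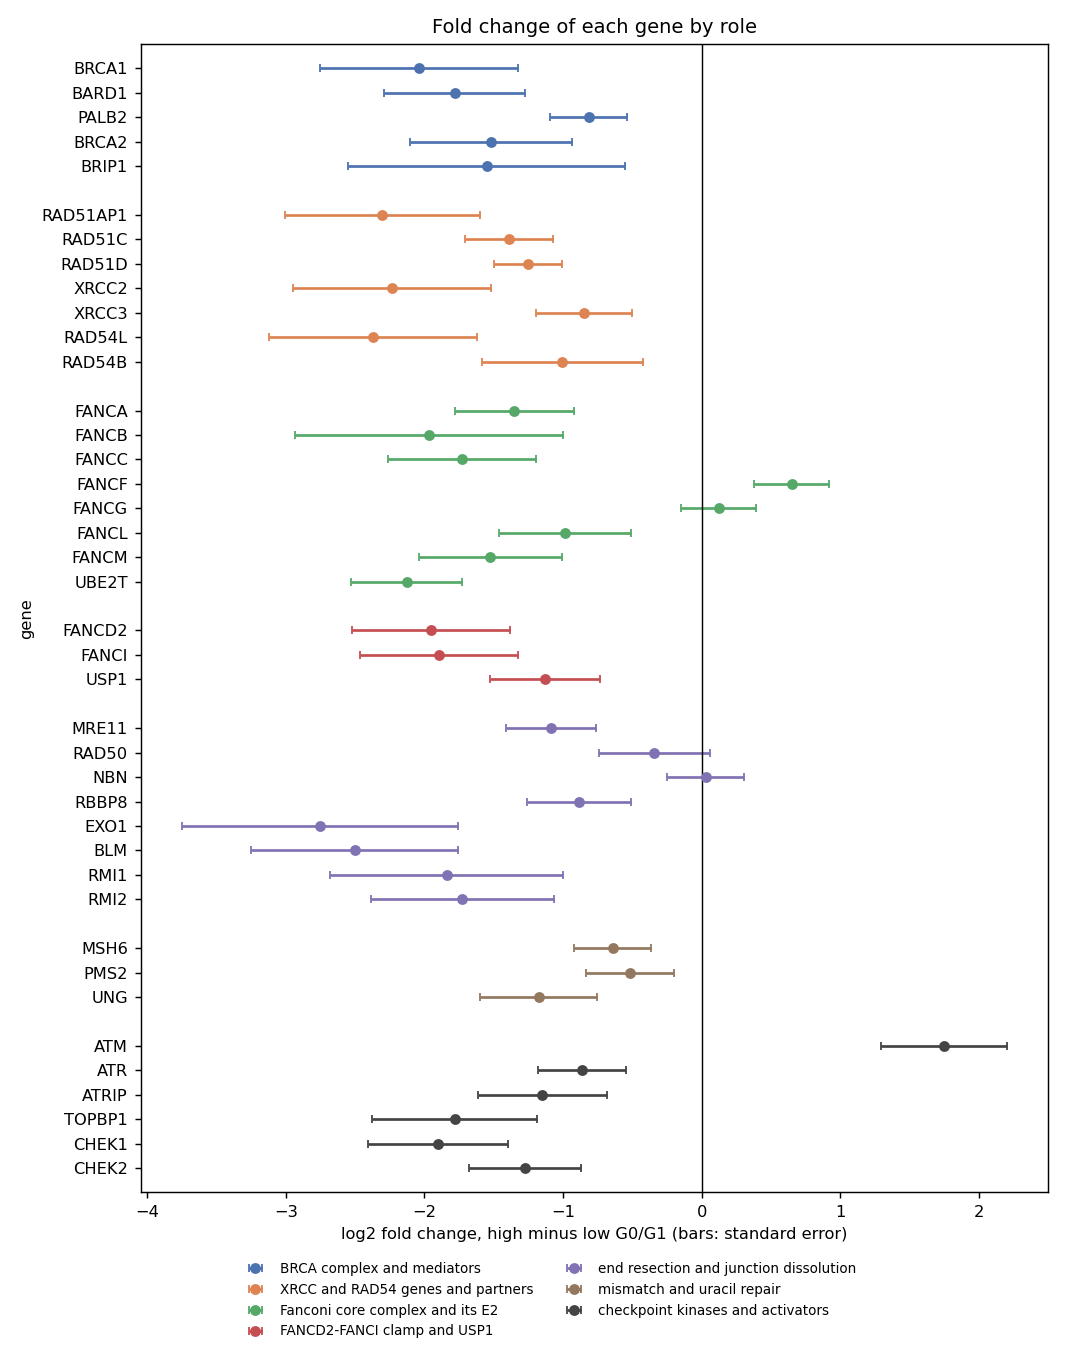
Log2 fold change of each member, high minus low G0/G1, coloured by role, with the standard error of edgeR's quasi-likelihood fit as bars. Of the 40 points, 36 lie to the left of 0; ATM lies farthest to the right, at 1.75, and EXO1 farthest to the left, at -2.75.

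In the group that cuts back DNA ends and dissolves joined molecules, 7 of 8 genes were lower, with a median of -1.41. The MRE11-RAD50-NBN complex, which binds the broken end, was not uniform. MRE11, its nuclease, had 23.7 and 13.7 CPM in high replicates 1 and 2 against 40.4 and 38.9 CPM in the low replicates (-1.09 ± 0.33, edgeR adjusted p = 0.191). RAD50 had 33.7 and 16.0 CPM against 34.5 and 28.5 CPM, and NBN had 27.9 and 19.2 CPM against 23.1 and 23.2 CPM. Both genes overlapped between groups, with log2 fold changes of -0.34 ± 0.40 and 0.03 ± 0.28. Leaving out high replicate 2 moved RAD50 to 0.10, and NBN was at -0.27 without high replicate 1 and at -0.01 with library totals in place of TMM scaling. RAD50 overlaps KIF3A by 6850 bases and SLC22A5 by 3116 bases in the annotation, and these had log2 fold changes of 0.62 and 1.04. RBBP8, which starts end cutting together with MRE11, had 37.3 and 19.0 CPM against 57.4 and 46.4 CPM (-0.88 ± 0.37).

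EXO1 and BLM had the lowest log2 fold changes of all members. EXO1, the exonuclease that extends the cut, had 7.14 and 0.772 CPM in high replicates 1 and 2 (213 and 22 counts) against 33.5 and 20.01 CPM in the low replicates, a log2 fold change of -2.75 ± 0.998 (edgeR adjusted p = 0.219, DESeq2 adjusted p = 0.023). The helicase gene BLM had 7.28 and 1.58 CPM against 30.3 and 20.04 CPM, at -2.50 ± 0.75 (edgeR adjusted p = 0.190, DESeq2 adjusted p = 0.0090). High replicate 2 was the lowest library in both, and the values without high replicate 1 were -5.12 for EXO1 and -3.999 for BLM. The BLM partners RMI1 and RMI2 had log2 fold changes of -1.84 ± 0.84 and -1.73 ± 0.66, RMI1 from 6.64 and 1.05 CPM in high replicates 1 and 2 and 14.5 and 13.1 CPM in the low replicates. RMI2 had 17.3 and 4.25 CPM against 32.4 and 38.9 CPM, again lowest in high replicate 2.

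Genes of mismatch and uracil repair were closest to 0 among the roles, with a median of -0.64. MSH6, which recognises mispaired bases, had 82.4 and 53.6 CPM in high replicates 1 and 2 against 114 and 97.4 CPM in the low replicates (-0.64 ± 0.28). PMS2, an endonuclease subunit of mismatch repair, had 11.0 and 9.27 CPM against 12.3 and 16.7 CPM (-0.52 ± 0.32). UNG, which removes uracil from DNA, had 35.5 and 16.3 CPM against 49.8 and 67.1 CPM (-1.18 ± 0.42). In all 3 both high libraries lay below both low ones, where 29.8% of all genes tested did. DESeq2 called none of them, where it called 5.05% of all genes lower.

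Among the checkpoint genes, ATM was higher and the other 5 were lower. ATM (chromosome 9, 36620656 to 36759555), which answers to double-strand breaks, was the sole member called higher by DESeq2, with 94.2 and 234 CPM in high replicates 1 and 2 against 50.8 and 46.9 CPM in the low replicates. Its high replicate 2 value stood well above the rest, where most members had their lowest level. The log2 fold change was 1.75 ± 0.46 (edgeR adjusted p = 0.175, DESeq2 adjusted p = 0.0068). It was 2.25 without high replicate 1, and 0.95 when high replicate 2 was omitted. DESeq2 kept the call in the fit that lacked high replicate 1 (6.51% of all genes called higher) and made none when high replicate 2 (2.57%), low replicate 1 (2.02%) or low replicate 2 (1.35%) was left out. CHEK2, the main kinase downstream of ATM, was lower at 13.6 and 6.71 CPM against 23.4 and 25.8 CPM (-1.27 ± 0.40, edgeR adjusted p = 0.196). CHEK2 overlaps TTC28 by 225194 bases in the annotation, and TTC28 had a log2 fold change of 0.32.

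In the ATR branch, which answers to stalled forks, all 4 genes were lower. CHEK1, the kinase downstream of ATR, had 9.66 and 3.65 CPM in high replicates 1 and 2 against 25.2 and 24.6 CPM in the low replicates, a log2 fold change of -1.90 ± 0.51 (edgeR adjusted p = 0.176, DESeq2 adjusted p = 0.0094). TOPBP1, which activates ATR, had 78.9 and 23.6 CPM against 207 and 145 CPM (-1.78 ± 0.60, edgeR adjusted p = 0.205, DESeq2 adjusted p = 0.029). ATR itself had 19.7 and 12.2 CPM against 31.4 and 26.7 CPM, and its partner ATRIP 5.30 and 2.63 CPM against 8.94 and 8.67 CPM. These 2 had log2 fold changes of -0.87 ± 0.32 and -1.15 ± 0.47.

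Reads of partner genes were also set against each other within a library, which leaves out the library total. The ratio depends on the lengths of the 2 genes, so only its change between libraries can be read. Of 14 such ratios, picked by known partnership with the values in view, 9 were higher in both high libraries than in both low ones, 1 was lower and 4 overlapped. Turning a ratio over swaps higher and lower, so this tally of directions depends on which gene was put on top. The share of other gene pairs whose groups lie apart was not computed. FANCD2 to FANCI stayed level at 0.841 and 0.850 in high replicates 1 and 2 against 0.849 and 0.911 in the low replicates. ATM to ATR stood at 4.79 and 19.2 against 1.62 and 1.76, and NBN to MRE11 at 1.18 and 1.41 against 0.571 and 0.596. CHEK2 to CHEK1 was 1.41 and 1.84 in high replicates 1 and 2 against 0.928 and 1.05 in the low replicates, and FANCG to FANCA 1.29 and 3.05 against 0.488 and 0.834. As the pairs were picked with the values in view, the ratios are a description and were not tested.

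**Figure D3:**
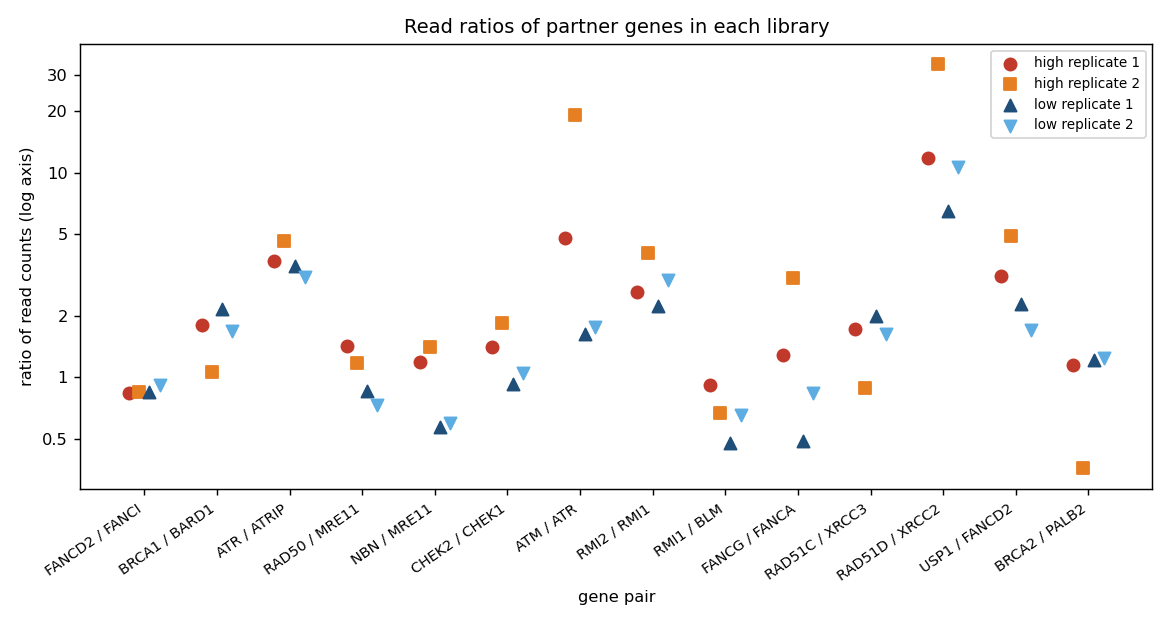
Ratio of read counts of 14 pairs of partner genes on a log axis, with 1 symbol per library. FANCD2 to FANCI lies between 0.841 and 0.911 in every library, while ATM to ATR reaches 19.2 in high replicate 2 against 1.62 and 1.76 in the low libraries.

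Markers of replication and mitosis were lower too. All 18 replication markers and all 16 mitosis markers were lower in high G0/G1 cells, with median log2 fold changes of -2.10 and -1.96, both further from 0 than the median of -1.37 over the repair and checkpoint genes. The median of the replication markers was passed by 6 members, RAD51AP1, XRCC2, RAD54L, UBE2T, EXO1 and BLM. Relative to their mean over the 4 libraries, the replication markers averaged -0.34 and -1.92 on the log2 scale in high replicates 1 and 2 and 1.22 and 1.04 in the low replicates. The repair and checkpoint genes averaged -0.11 and -1.37 in high replicates 1 and 2 and 0.78 and 0.69 in the low replicates, so both lists placed high replicate 2 lowest.

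Genes of the same pathways outside the member list had medians nearer to 0. These differences were not tested, and the members were chosen with earlier results of these data known, so they cannot be read as a contrast within the pathways. Among 30 tested genes of recombination and crosslink repair 25 were lower, with a median of -0.50, and 8 were lower and 2 higher at an unadjusted p under 0.05 (10.8% and 9.92% of all genes). DESeq2 called 7 lower and 1 higher (5.05% and 5.34% of all genes). The 2 and 1 higher genes among 30 are too few to set against the shares of all genes. The smallest p-values belonged to EME1, a nuclease subunit, with 15.3 and 8.14 CPM in high replicates 1 and 2 against 49.1 and 33.3 CPM in the low replicates (-1.81 ± 0.40), to the ubiquitin ligase gene RFWD3 (-0.87 ± 0.20) and to SLX4, a scaffold of nucleases (-1.33 ± 0.33). The lowest log2 fold change of the list, -2.74 ± 0.74, belonged to FAAP24, a Fanconi-associated protein gene at 1.68 and 0.421 CPM in high replicates 1 and 2 against 6.74 and 7.35 CPM in the low replicates, and the highest, 1.30 ± 0.42, to the nuclease subunit gene EME2. These 2 were named outside that rule, after their values were seen. The meiotic recombinase gene DMC1 had no count in any library, which allows up to 0.0918 to 0.109 CPM of the unscaled library total (counting error only).

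Of 18 other genes of checkpoint and damage signalling 13 were lower, with a median of -0.16, and 4 were lower and 1 higher at an unadjusted p under 0.05 (10.8% and 9.92% of all genes). CLSPN, the adaptor through which ATR reaches CHEK1, had 14.3 and 3.51 CPM in high replicates 1 and 2 against 52.4 and 38.7 CPM in the low replicates (-2.35 ± 0.68, and -3.71 without high replicate 1). DESeq2 called CLSPN alone of this list lower and none higher, where it called 5.05% and 5.34% of all genes. RNF8, a ubiquitin ligase that works at breaks on the signal of ATM, had 61.7 and 58.7 CPM against 93.3 and 112 CPM (-0.77 ± 0.21), and the checkpoint clamp gene RAD1 12.1 and 9.83 CPM against 19.0 and 22.4 CPM (-0.92 ± 0.28). Both groups of each gene stood apart.

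**Figure D4:**
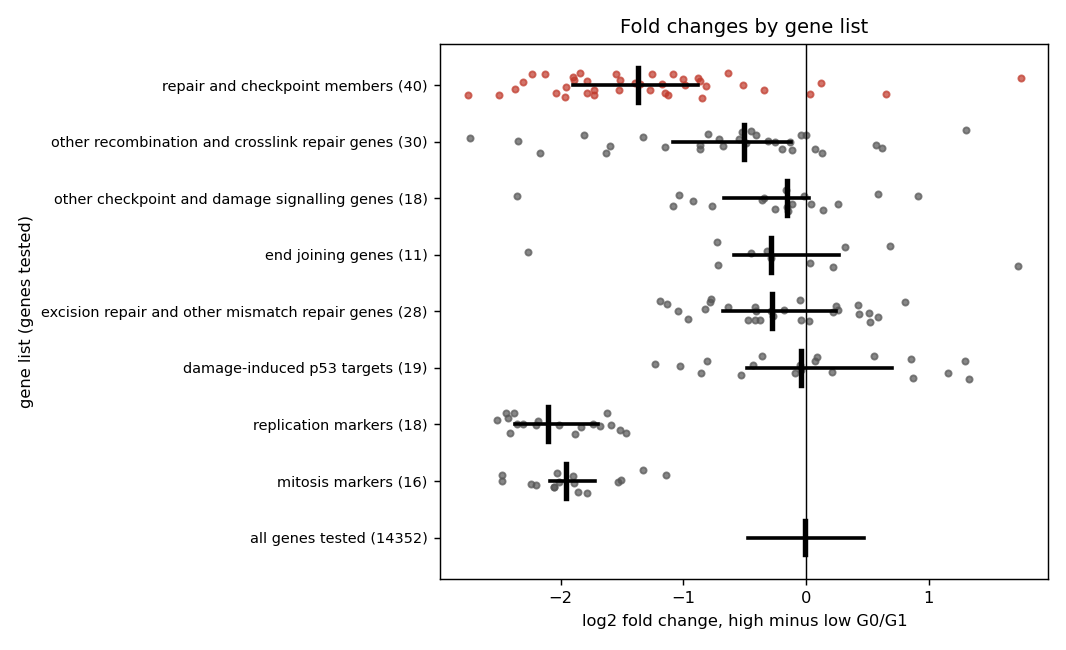
Log2 fold changes, high minus low G0/G1, of the members and of 7 related gene lists, 1 point per gene, with the median as a vertical bar and the middle range from the 25th to the 75th percentile as a horizontal line; all genes tested are shown by the lines alone. The medians run from -2.10 for the replication markers through -1.37 for the members to -0.04 for p53 targets and -0.01 for all genes.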

How the data were processed

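RNA was sequenced from 4 libraries of porcine granulosa cells, 2 per group. The values are raw counts by gene symbol, whole numbers, in 1 table that the authors deposited. Reads were aligned with HISAT2 to Sscrofa11.1, per the submitters' processing notes; counter, annotation release and strand setting: not given in the sources used here. Overlapping genes may therefore share reads. Columns were mapped to samples by title, and replicate numbers only follow the order of the samples. Coordinates come from the RefSeq table of Sscrofa11.1, which held all 40 members measured.

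High was compared with low G0/G1 with edgeR 4.0.16 in R 4.3.3 (TMM, glmQLFit and glmQLFTest without covariates, after filterByExpr at min.count 10 and min.total.count 15). P-values were adjusted by Benjamini-Hochberg over 14352 genes, at a threshold of 0.05. Standard errors were obtained by dividing the size of the log2 fold change by the root of F. Log2 CPM uses a prior count of 2. DESeq2 1.42.0 and limma-voom (limma 3.58.1) were alternatives, beside other filters, scalings and the omission of each library. Each test was checked on simulated counts with known changes, where DESeq2 made more false calls than its threshold allows, and more than edgeR or limma-voom. The simulated libraries of both groups were given the same spread, unlike those of the members. A count of 0 was read as a limit of 3 counts.

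Members and lists were chosen with earlier results of these data known, so counts and medians of a list are descriptions without a test. Every member is reported, with full values for the 3 smallest p-values of each role and for members opposite to most; related lists give up to 3 genes each, those of smallest p whose average log2 CPM was at least 1. The values of 1 gene in a related list are not reported here, though the list's counts and median include it. DESeq2 without single libraries was added after seeing the data.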

Additional observations from a re-analysis of the deposited data

How the results depend on the processing

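No paired analysis was run because the labels number no replicates and state no pairing. The codes in the library titles share a number between high replicate 1 and low replicate 1. They share the letter W between high replicate 2 and low replicate 2. What the codes mean is not stated, so a link between these libraries cannot be told from the labels. Under edgeR with no filter on low counts 3 genes were called lower and 2 higher, none of them a member. DESeq2 called 725 genes lower and 767 higher, among them 16 and 1 of the members. With single libraries left out, edgeR called 0 to 591 genes lower and 0 to 363 higher, and 0 to 26 members lower and 0 to 1 higher, each upper value without high replicate 1; DESeq2 called 0 to 32 members lower and 0 to 1 higher. At an unadjusted p under 0.05 between 10 and 33 members were lower. Over these fits the median log2 fold change ran from -2.12 to -0.96 for the members, from -2.71 to -0.91 for the BRCA1 complex, from -2.13 to -1.17 for XRCC and RAD54 genes and their partners, from -2.23 to -0.93 for the Fanconi core, from -3.01 to -1.27 for the clamp with USP1, from -2.31 to -0.89 for end resection and dissolution, from -0.99 to -0.40 for mismatch and uracil repair and from -1.81 to -0.79 for the checkpoint genes. It ran from -0.40 to -0.13 for other checkpoint genes, from -3.26 to -1.56 for replication markers and from -3.56 to -1.20 for mitosis markers. The median changed sign for p53 targets (-0.16 to 0.28) and all genes (-0.048 to 0.048), and single genes did so for FANCG (-0.087 to 0.481), RAD50 (-0.98 to 0.10) and NBN (-0.27 to 0.27; -0.011 with library totals). The cause was not tested. Filters and scalings moved no other member across 0 or the threshold. The fewest counts behind a member were 12, for FANCB in high replicate 2, and limit its value.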

Other observations

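Genes of end joining, the repair path that needs no sister copy, did not move as a block in high G0/G1 cells. Of 11 tested genes 5 were higher and 6 lower, with a median log2 fold change of -0.29 (-0.44 without low replicate 1 and -0.047 without low replicate 2). LIG4, the ligase that seals ends in this path, had 57.2 and 84.2 CPM in high replicates 1 and 2 against 31.8 and 10.9 CPM in the low replicates (1.73 ± 0.55, SE). DESeq2 called LIG4 higher (adjusted p = 0.027), where it called 5.34% of all genes higher. Leaving out low replicate 1 gave 2.77, and 1.17 remained once low replicate 2, the library rich in stroma and theca markers, was dropped. RIF1, which holds back end cutting, had 100.3 and 71.2 CPM against 58.7 and 47.8 CPM (0.69 ± 0.26, and 0.41 without high replicate 1). POLQ, the polymerase of an alternative joining path, had 8.72 and 0.807 CPM against 27.3 and 18.6 CPM (-2.27 ± 1.03), which became -4.83 without high replicate 1 and -1.40 without high replicate 2. In LIG4 and RIF1 the high replicates lay above the low ones, as in ATM, and in POLQ they lay below. By edgeR's quasi-likelihood test 0 genes of the list passed the adjusted threshold, and at an unadjusted p under 0.05 LIG4 and RIF1 were higher (9.92% of all genes).

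Excision repair and other mismatch repair genes were lower in 18 of 28 tested, with a median of -0.28. PARP1, a sensor of strand breaks, had 129 and 94.5 CPM in high replicates 1 and 2 against 217 and 219 CPM in the low replicates (-0.96 ± 0.24, DESeq2 adjusted p = 0.023), and MUTYH, which removes adenine opposite oxidised guanine, had 19.2 and 10.3 CPM against 33.03 and 31.9 CPM (-1.13 ± 0.36, and -0.75 without high replicate 2). ERCC5, a nuclease of nucleotide excision repair, was higher with 33.04 and 33.03 CPM in the high replicates against 18.4 and 19.4 CPM in the low replicates (0.80 ± 0.22, DESeq2 adjusted p = 0.041). Genes that p53 induces after DNA damage were higher in 9 of 19 and lower in 10, with a median of -0.04. Among them BTG2, an antiproliferative gene, had 239 and 287 CPM in high replicates 1 and 2 against 144 and 65.8 CPM in the low replicates (1.32 ± 0.41; 2.07 without low replicate 1 and 0.88 without low replicate 2), the bypass polymerase gene POLK 25.6 and 19.2 CPM against 13.0 and 11.6 CPM (0.87 ± 0.28), and the metabolic regulator TIGAR 18.4 and 6.57 CPM against 33.3 and 25.3 CPM (-1.23 ± 0.52; -2.17 without high replicate 1 and -0.67 without high replicate 2).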
